A study of Mus musculus with 6 samples.

Results

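Aldehyde dehydrogenases oxidise reactive aldehydes to carboxylic acids, and their paralogs divide this work between retinoid, folate, amino acid, GABA, carnitine and lipid metabolism. In the adult brain several of them are glial enzymes, and Aldh1l1 is a standard astrocyte gene. The mouse genes Aldh1a1, Aldh1l1, Aldh2, Aldh3a2, Aldh3b1, Aldh4a1, Aldh5a1, Aldh6a1, Aldh7a1 and Aldh9a1 were chosen by name, with earlier results of these data known. Each was found by Ensembl identifier among the 37620 genes counted. All 10 passed the filter on low counts, with a mean of 844 (Aldh3b1) to 12273 (Aldh6a1) reads per library. The 11 further aldehyde dehydrogenase genes of the annotation were used for comparison.

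The mRNA was taken from tagged ribosomes of Gli1CreERT2:Rpl22HA f/+ mice that were either Klf9 +/+ or Klf9 f/f (3 libraries each). Klf9 is a zinc finger transcription factor, and tamoxifen, given to mice of both genotypes at 2 to 3 months of age, activated Cre in Gli1-expressing cells so that Rpl22-HA was switched on and, in Klf9 f/f mice, floxed Klf9 was recombined. Each library pooled 6 dentate gyri from 3 mice, collected 4 days after the last of 3 injections spaced 12 hr apart. By the study's account, the Gli1CreERT2 driver reaches radial glial-like neural stem cells (RGLs) and astrocytes, and the ribosomes come largely from these and from the cells that RGLs gave rise to in their first division. The labels call the Klf9 f/f libraries "knock down". Replicates 1 and 2 of each genotype carry library names of one series (the first) and replicate 3 of each genotype of another (the second), and what the series stands for is not stated.

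Reads counted on genes ranged from 21594714 to 66343759, and the second series was shallower, with 13.0% to 13.6% of reads not mapped uniquely against 7.63% to 8.95% in the first. Klf9 stood at 201, 204 and 139 CPM (counts scaled to library size) in the Klf9 +/+ libraries against 114, 121 and 120.0 CPM in those of Klf9 f/f, lower in each library than in any Klf9 +/+ library. The summed CPM of 14 astrocyte markers ran from 10333 to 12363 in Klf9 +/+ and from 11717 to 17030 in Klf9 f/f, that of 11 radial glia markers from 2522 to 3845 and from 3136 to 3542. All 14 choroid plexus markers were called lower in Klf9 f/f at 1.2-fold and unadjusted p under 0.05 (276.9 to 4216 CPM summed in Klf9 +/+ and 116 to 795 CPM in Klf9 f/f), as were 5 of 14 endothelial and mural and 3 of 12 meningeal markers. For the other three lists, granule neuron markers summed to 1141 to 1567 CPM and 1172 to 1357 CPM, microglia markers to 131 to 172 CPM and 137 to 181 CPM, and oligodendrocyte markers to 604 to 867 CPM and 624 to 811 CPM, in Klf9 +/+ and Klf9 f/f. Of these, 0 of 11 granule neuron and 0 of 10 microglia markers were called, and 2 of 10 oligodendrocyte markers were called higher. No marker was at 0 counts in any library. In such pooled tissue, a change in the number of cells of a type and a change in RNA per cell cannot be told apart.

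Promoter sequences are given for the members called in Klf9 f/f, since KLF proteins are known to bind GC boxes and CACCC boxes. The sequences are the 250 bases before the RefSeq start on the gene's strand (GRCm38.p6, a later build than that of the counts), and capitals mark the letters GGGCGG (the GC box) and CACCC (the CACCC box), each searched for on both strands. They lie at chr6:90550543-90550792 (plus strand), chr19:3929779-3930028 (minus), chr4:139622644-139622893 (plus) and chr12:84451025-84451274 (minus), the last being the first of 2 windows for Aldh6a1.
Aldh1l1: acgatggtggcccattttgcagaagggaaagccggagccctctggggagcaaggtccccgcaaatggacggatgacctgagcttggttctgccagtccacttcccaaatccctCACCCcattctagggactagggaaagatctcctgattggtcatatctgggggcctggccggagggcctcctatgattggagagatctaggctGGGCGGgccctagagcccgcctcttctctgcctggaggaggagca
Aldh3b1: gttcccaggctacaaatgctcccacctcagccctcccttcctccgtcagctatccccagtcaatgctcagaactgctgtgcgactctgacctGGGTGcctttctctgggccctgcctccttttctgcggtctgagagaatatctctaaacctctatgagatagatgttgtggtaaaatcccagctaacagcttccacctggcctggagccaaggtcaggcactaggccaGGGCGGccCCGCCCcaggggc
Aldh4a1: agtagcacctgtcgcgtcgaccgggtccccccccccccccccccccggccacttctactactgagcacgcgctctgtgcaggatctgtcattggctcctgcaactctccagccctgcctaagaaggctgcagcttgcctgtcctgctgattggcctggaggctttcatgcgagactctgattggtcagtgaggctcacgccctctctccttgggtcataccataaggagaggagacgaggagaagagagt
Aldh6a1: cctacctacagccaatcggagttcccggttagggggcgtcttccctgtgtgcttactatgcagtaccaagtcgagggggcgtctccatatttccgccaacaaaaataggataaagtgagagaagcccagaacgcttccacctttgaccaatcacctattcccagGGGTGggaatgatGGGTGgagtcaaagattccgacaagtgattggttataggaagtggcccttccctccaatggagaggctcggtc

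The Aldh1l1 window held a CACCC box starting 137 bases and a GC box starting 45 bases before the start. Aldh3b1 held a CACCC box at 158 bases and GC boxes at 21 and 13 bases, Aldh6a1 held CACCC boxes at 86 and 73 bases, and Aldh4a1 held neither motif. The motifs did not overlap in these windows. Of the 8 members with a RefSeq window, 3 held a GC box and 6 a CACCC box, and of 7 other family genes with a window, 3 and 6 did. Over all 32851 windows of this length, 32.7% held a GC box and 52.0% a CACCC box. These shares are of windows, whereas a gene was counted if any of its windows held the motif. Aldh1a1 and Aldh6a1 have 2 windows each, so the gene counts and the window shares are not like for like. Aldh2 and Aldh7a1 were not searched. A match describes the letters of a window and not binding.

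Aldh6a1, the mitochondrial dehydrogenase of valine and thymine breakdown, was the dominant paralog. Levels are compared between genes as TMM-scaled CPM per kb of annotated exon. Aldh6a1 stood at 53.6, 64.2 and 85.3 CPM per kb in Klf9 +/+ and at 94.1, 63.8 and 114.8 CPM per kb in Klf9 f/f, and it ranked first of the 10 in every library. It held 23.0% to 31.7% of the members' summed level. Aldh2, the mitochondrial enzyme best known for clearing acetaldehyde, ranked second in every library at 50.4 ± 8.82 CPM per kb (SD, n = 6). Together Aldh6a1 and Aldh2 held 41.7% to 48.3% of the members' level.

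Below them, Aldh1a1 and Aldh7a1 both averaged 33.6 CPM per kb (SD 8.76 and 5.26, n = 6), and Aldh1a1 lay above Aldh7a1 in 3 of 6 libraries, so their order could not be told from their spread. Aldh9a1 followed at 29.3 ± 3.24 CPM per kb, below Aldh7a1 in 5 of 6 libraries and within its spread. Aldh1l1 came next at 19.6 ± 8.92 CPM per kb, the widest relative spread of the family members. It lay above Aldh1a1 in Klf9 f/f replicate 3 alone (30.7 against 30.1 CPM per kb). Aldh4a1 ranked 7 in every library at 14.3 ± 4.61 CPM per kb. Aldh3a2, Aldh3b1 and Aldh5a1, at 10.2 ± 1.81, 9.73 ± 1.91 and 8.23 ± 1.70 CPM per kb, exchanged the lowest places between libraries. The places below Aldh2 depend on the length used. All annotated exons span 5619 bp for Aldh3a2 and 4907 bp for Aldh4a1, but their longest transcripts 3091 and 4142 bp. For Aldh7a1 these lengths are 5181 and 4131 bp, and for Aldh1a1 2053 bp by both. Longest transcripts as length would therefore raise Aldh3a2 relative to Aldh4a1, and Aldh7a1 relative to Aldh1a1. The members' summed level was 233, 234 and 299 CPM per kb in Klf9 +/+ and 352, 249 and 362 CPM per kb in Klf9 f/f, so Klf9 f/f replicate 2 lay below Klf9 +/+ replicate 3.

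**Figure D1:**
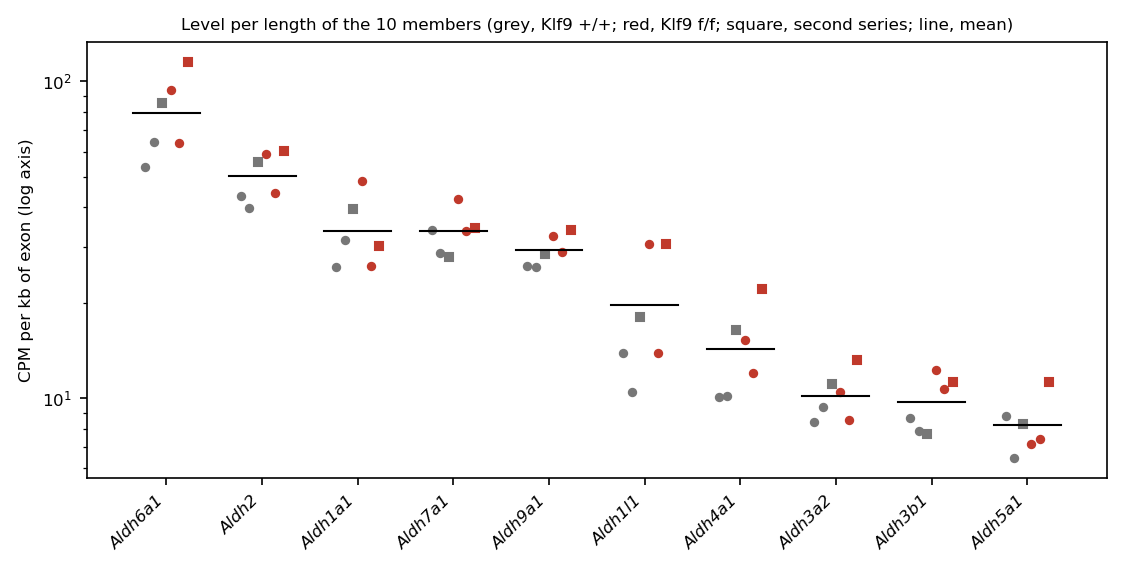
Level of each member in CPM per kb of exon (log axis), with a point for each of 6 libraries (grey, Klf9 +/+; red, Klf9 f/f; square, second series) and a line at their mean. Aldh6a1 stood highest in every library, at 53.6 to 114.8 CPM per kb, and Aldh2 second, while Aldh3a2, Aldh3b1 and Aldh5a1 overlapped at the bottom.

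In Klf9 f/f, Aldh1l1, Aldh3b1, Aldh4a1 and Aldh6a1 were higher at the study's threshold (1.2-fold and unadjusted p under 0.05, here from edgeR's quasi-likelihood test with the series as a term), and 0 members were lower. At this threshold 1.82% of the 15056 genes tested were called higher and 2.50% lower. After Benjamini-Hochberg adjustment over all of these genes, the same edgeR test left 0 members and 0 genes, with the smallest adjusted p among members at 0.971 (Aldh3b1). The likelihood-ratio test of edgeR and DESeq2 also left 0 members after adjustment, with smallest adjusted p of 0.231 and 0.306. Over all 15056 genes, 58 and 39 passed adjustment in these fits. With no filter on low counts, the edgeR test gave Aldh1l1 an adjusted p of 3.9e-05 in a fit where 334 of 25153 genes passed adjustment, and the reason was not tested. All 10 members had a log2 fold change above 0, with a median of 0.27, whereas the median over all genes was 0.00084 and 50.2% lay above 0. The study had already named Aldh3b1 and Aldh4a1 among its upregulated genes from these libraries. The member counts are therefore no independent support for a rise of the family.

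Klf9 f/f libraries lay above the Klf9 +/+ libraries of their own series for Aldh2, Aldh3b1, Aldh4a1 and Aldh9a1 (4 of 10, where 7.78% of all genes did, and 0 of 10 lay below, where 5.53% did), and above all Klf9 +/+ libraries for Aldh3b1 and Aldh9a1 (2 of 10, where 2.03% did, against 0 below, where 1.35% were). The exact permutation test of 3 against 3 libraries cannot go below p = 0.1, two-sided. Mice were pooled and the origin of each library is given by genotype only, so the p-values measure the spread between these libraries.

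**Figure D2:**
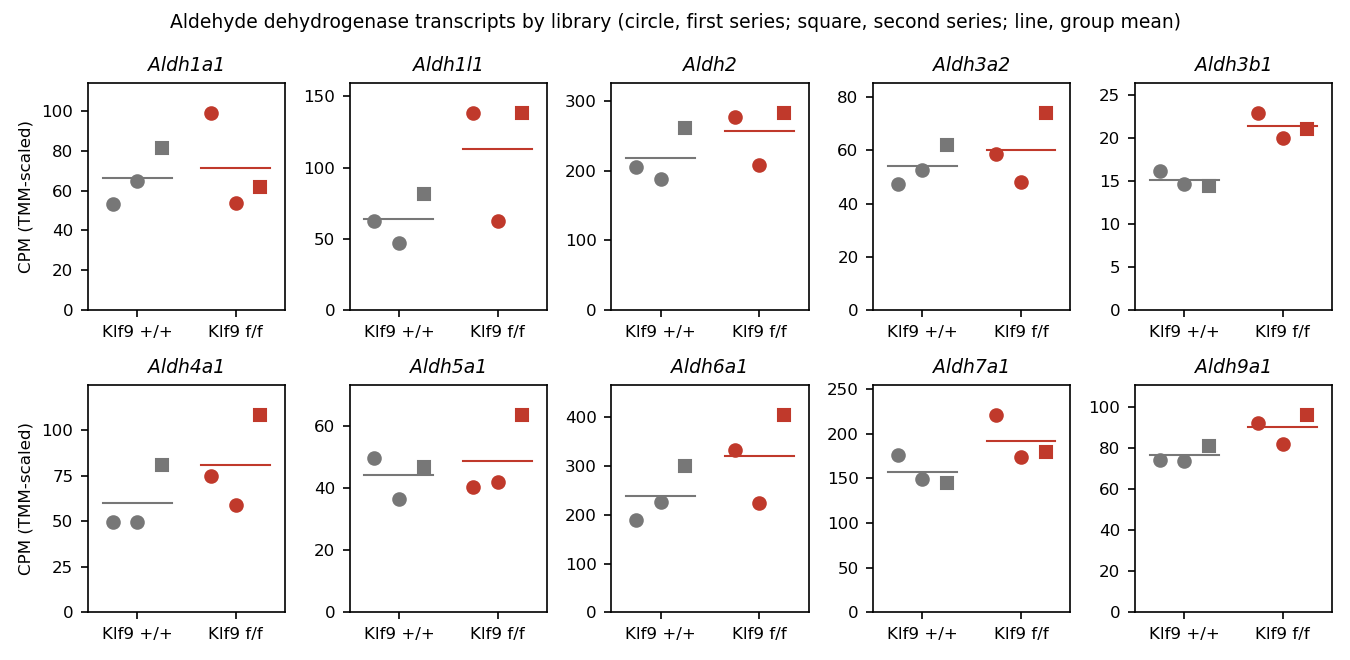
TMM-scaled CPM of each member in every library, with Klf9 +/+ in grey, Klf9 f/f in red, squares for the second series, lines at group means and each axis starting at 0. Aldh3b1 and Aldh9a1 have every Klf9 f/f library above every Klf9 +/+ library, and Aldh1l1 has Klf9 f/f replicates 1 and 3 near 139 CPM but replicate 2 at 62.7 CPM.

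Aldh1l1 (ENSMUSG00000030088, chromosome 6 of mm9, 90436421 to 90550197, plus strand) encodes formyltetrahydrofolate dehydrogenase, which returns formyl-folate to tetrahydrofolate. It stood at 62.7, 47.3 and 81.3 CPM in Klf9 +/+ against 139, 62.7 and 139 CPM in Klf9 f/f. Libraries 1 and 3 of Klf9 f/f lay above every Klf9 +/+ library, and replicate 2 lay among them. It rose by 0.84 on the log2 scale, or 1.79-fold, with a standard error (SE) of 0.26 and an edgeR adjusted p = 1.00. Within the first series the mean log2 difference was 0.77, and within the second, with a single library per genotype, also 0.77. The call held in 6 of 6 fits that each left out a library. It held narrowly without Klf9 f/f replicate 1 or Klf9 +/+ replicate 2, at unadjusted p of 0.04999 and 0.0459 (edgeR quasi-likelihood test). The size also rested on single libraries, with 0.44 without Klf9 f/f replicate 1 and 1.10 without Klf9 f/f replicate 2. In fits without replicate 3 of either genotype, the series term takes up the remaining second-series library. The first series alone then sets the genotype difference. The antisense gene Gm15756 overlaps 499 bp of Aldh1l1 exons, and counting without strand could not assign reads there by strand. HTSeq sets aside reads that fit both genes as ambiguous, and ambiguous reads were left out of the counts. How many Aldh1l1 reads were lost in this way was not tested.

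Of 17 tested genes of folate one-carbon metabolism, 0 were called and 12 lay above 0, with a median of 0.07 on the log2 scale. The most abundant was Gldc, the glycine decarboxylase that feeds carbon units to folate, at 247 ± 17.3 (SD, n = 3) CPM in Klf9 +/+ and 309 ± 59.7 (SD, n = 3) CPM in Klf9 f/f, a log2 fold change of 0.31 with SE 0.14 that missed the threshold. Mthfd1, which makes the formyl-folate that Aldh1l1 uses, had a log2 fold change of 0.38 with SE 0.20. Mthfd1 and the other neighbouring enzymes given below were picked for their place in the pathway after the values were known.

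Among the enzymes of amino acid breakdown, Aldh4a1 and Aldh6a1 were called and Aldh5a1 and Aldh7a1 were not. Aldh6a1 (ENSMUSG00000021238, chromosome 12, 85771673 to 85791900, minus strand) stood at 189, 227 and 301 CPM in Klf9 +/+ against 332, 225 and 405 CPM in Klf9 f/f. Klf9 f/f replicate 2 lay just below Klf9 +/+ replicate 2, and the other two Klf9 f/f libraries lay above the whole Klf9 +/+ group. The log2 fold change was 0.42 with SE 0.17 (edgeR adjusted p = 1.00), and it was 0.40 within the first series and 0.43 within the second. The call held in 2 of 6 fits with a library left out, and it was lost without Klf9 +/+ replicate 1 (0.35), Klf9 f/f replicate 1 (0.25), Klf9 +/+ replicate 3 (0.42) or Klf9 f/f replicate 3 (0.42). Exons of 2900006K08Rik on the opposite strand overlap 99 bp of Aldh6a1.

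The branched-chain amino acid list had 0 of 19 genes called, with 16 above 0 and a median of 0.10 on the log2 scale. Echs1, its most abundant gene and a mitochondrial enoyl-CoA hydratase, stood at 228 ± 44.8 (SD, n = 3) and 247 ± 39.4 (SD, n = 3) CPM, and Hibadh, the enzyme just upstream of Aldh6a1 in valine breakdown, had a log2 fold change of 0.13 with SE 0.12.

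Aldh4a1 (ENSMUSG00000028737, chromosome 4, 139178781 to 139205605, plus strand) turns glutamate semialdehyde from proline into glutamate. It stood at 49.3, 49.7 and 80.5 CPM in Klf9 +/+ against 74.8, 58.9 and 108 CPM in Klf9 f/f, and each Klf9 f/f library lay above the Klf9 +/+ libraries of its series while the groups overlapped across series. Its difference was 0.42 in the first series and 0.43 in the second on the log2 scale. The call held in 4 of 6 fits. It was lost without replicate 3 of either genotype, where the first series alone sets the difference and the value was 0.43. In the proline list 0 of 7 genes were called and 5 lay higher, with a median log2 fold change of 0.11. Prodh, the proline dehydrogenase upstream of Aldh4a1, stood at 51.1 ± 2.24 (SD, n = 3) and 60.2 ± 4.11 (SD, n = 3) CPM, which missed the threshold, and Glud1, which links glutamate to the citric acid cycle, had a log2 fold change of 0.20 with SE 0.14.

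Aldh7a1 (ENSMUSG00000053644, chromosome 18, 56669341 to 56732605, minus strand) oxidises aminoadipate semialdehyde from lysine. It stood at 176, 149 and 145 CPM in Klf9 +/+ against 221, 174 and 179 CPM in Klf9 f/f, where Klf9 f/f replicate 2 lay below Klf9 +/+ replicate 1 and the groups otherwise did not overlap. The log2 fold change was 0.29 with SE 0.14 and missed the threshold, but it passed at 0.38 without Klf9 f/f replicate 2. Exons of Phax on the opposite strand overlap 300 bp of it. In the lysine list 0 of 7 genes were called and 6 lay higher, with Dlst, the most abundant, at a log2 fold change of 0.06 and Aass, the first enzyme of the pathway, at 5.62 ± 2.23 (SD, n = 3) and 5.99 ± 1.94 (SD, n = 3) CPM.

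Aldh5a1 (ENSMUSG00000035936, chromosome 13, 24999448 to 25029530, minus strand), the succinic semialdehyde dehydrogenase that ends GABA breakdown, had the smallest fold change of the members. It stood at 49.7, 36.5 and 46.9 CPM in Klf9 +/+ against 40.4, 41.9 and 63.6 CPM in Klf9 f/f. Only Klf9 f/f replicate 3 lay outside the Klf9 +/+ range. The log2 fold change was 0.10 with SE 0.17, and it turned to -0.073 in the first series alone. Without replicate 3 of Klf9 f/f or Klf9 +/+, where the first series again sets the difference, it was -0.066 or -0.071. Exons of 4932702P03Rik and 9330162012Rik on the opposite strand overlap 602 bp of Aldh5a1. All 7 genes of GABA synthesis and breakdown lay higher in Klf9 f/f with 0 called and a median of 0.21. Abat, the GABA transaminase upstream of Aldh5a1, stood at 94.7 ± 16.8 (SD, n = 3) and 113.8 ± 38.5 (SD, n = 3) CPM.

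Of the enzymes that act on lipid aldehydes, Aldh3b1 was called and Aldh3a2 was not. Aldh3b1 (chromosome 19, minus strand), a membrane enzyme for medium and long-chain aldehydes, stood at 16.2, 14.7 and 14.5 CPM in Klf9 +/+ against 23.0, 20.0 and 21.1 CPM in Klf9 f/f. The 2 groups did not overlap, and the gap between the highest Klf9 +/+ and the lowest Klf9 f/f library was wider than the spread within either group. The log2 difference was 0.47 within the first series and 0.54 within the second. The call held in 4 of 6 fits. Without replicate 3 of Klf9 +/+ or Klf9 f/f, where the first series alone sets the difference, the value was 0.47 and missed the threshold.

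Aldh3a2 (ENSMUSG00000010025, chromosome 11, 61036919 to 61080966, minus strand) is the fatty aldehyde dehydrogenase of the endoplasmic reticulum. It stood at 47.2, 52.6 and 62.0 CPM in Klf9 +/+ against 58.6, 47.9 and 74.1 CPM in Klf9 f/f, with overlapping groups and a log2 fold change of 0.15 (SE 0.14). In its pathway list of fatty aldehyde, sphingosine and phytol metabolism, 3 of 11 genes were called higher and 0 lower, with a median of 0.10. Hacl1, a peroxisomal lyase that releases the aldehyde in phytanic acid breakdown, rose by 0.33 on the log2 scale (SE 0.15). Cyp4f14 and Cyp4f15, fatty acid hydroxylases of the cytochrome P450 family, rose by 0.52 (SE 0.19) and 0.46 (SE 0.17). These 3 calls fell to 0 beyond 1.2-fold (glmTreat), in the first series alone and without Klf9 f/f replicate 1 or replicates 2 or 3 of Klf9 +/+, and to 1 without Klf9 f/f replicate 3. Hacl1 was also lost with the other scalings, the likelihood-ratio test, DESeq2 and no series term. Sgpl1, the sphingosine phosphate lyase whose aldehyde product Aldh3a2 oxidises, had a log2 fold change of 0.18 with SE 0.16.

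Aldh2 (ENSMUSG00000029455, chromosome 5, 122016036 to 122043833, minus strand) stood at 205, 187 and 262 CPM in Klf9 +/+ against 277, 208 and 283 CPM in Klf9 f/f. Each Klf9 f/f library lay above the Klf9 +/+ libraries of its series, by as little as 208 against 205 CPM. The log2 fold change of 0.24 (SE 0.15) missed the threshold. The list of alcohol and aldehyde reductases held enzymes that act on the same substrates in the other direction or upstream. It also held the aldehyde oxidase Aox1 and catalase (Cat). Among its 10 tested genes, 2 were called higher and 0 lower. These were Akr1b8 (6.97 ± 2.47 against 11.0 ± 2.71 CPM, SD, n = 3) and Akr1b10, aldo-keto reductases with log2 fold changes of 0.68 and 0.39. Akr1a4, the most abundant of them, stood at 654 ± 174 (SD, n = 3) and 631 ± 178 (SD, n = 3) CPM, and Adh5 had a log2 fold change of 0.03 with SE 0.14. The count of 2 fell to 0 without the series term, in the first series alone and without Klf9 f/f replicate 1, Klf9 +/+ replicate 2 or replicate 3 of either genotype, to 1 beyond 1.2-fold (glmTreat), and rose to 4 without Klf9 +/+ replicate 1. Adh1, an alcohol dehydrogenase picked after its values were seen, had the lowest log2 fold change of the list at -1.07 with SE 0.54, which missed the threshold but was called lower with DESeq2, with no filter and without Klf9 f/f replicate 1 or Klf9 +/+ replicate 2.

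Aldh1a1 (ENSMUSG00000053279, chromosome 19, 20676451 to 20717952, plus strand), a retinaldehyde dehydrogenase, showed no steady difference. It stood at 53.1, 64.6 and 81.4 CPM in Klf9 +/+ against 99.1, 53.7 and 61.9 CPM in Klf9 f/f. Only Klf9 f/f replicate 1 lay above the Klf9 +/+ range. The mean log2 difference was 0.32 in the first series and -0.39 in the second, the fitted log2 fold change was 0.12 with SE 0.25, and it turned to -0.24 without Klf9 f/f replicate 1 and to -0.033 without Klf9 +/+ replicate 1. Its interaction with the series was -0.77 with SE 0.48, which missed the threshold. Over all genes 1.53% had an unadjusted interaction p under 0.05, and 0 of the 10 members did.

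The retinoid list had 3 of 12 genes called lower, 0 higher and a median of -0.27. The count fell to 0 in the first series alone and without replicate 3 of either genotype, with medians of -0.10, -0.10 and -0.097. Each of these settings rests on the first series for the genotype difference. The count was 1 without the series term or without Klf9 +/+ replicate 1, whereas it was 5 without Klf9 f/f replicate 1. Among those called, Rbp4, the secreted retinol carrier, and Stra6, its receptor, had log2 fold changes of -0.89 (SE 0.28) and -0.53 (SE 0.17). Rdh10, which makes the retinaldehyde that Aldh1a1 oxidises, had a log2 fold change of 0.27 with SE 0.15. The choroid plexus, vascular and meningeal markers lower in the same libraries are given above, and their part in the retinoid genes was not tested.

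Aldh9a1 (ENSMUSG00000026687, chromosome 1, 169280122 to 169298661, plus strand) makes a carnitine precursor from trimethylaminobutyraldehyde. It stood at 74.2, 73.7 and 80.9 CPM in Klf9 +/+ against 92.1, 81.8 and 96.0 CPM in Klf9 f/f, with no overlap between the groups. The difference was small at 0.24 on the log2 scale (SE 0.12), or 1.18-fold, and missed the threshold. In the carnitine synthesis list 0 of 3 tested genes were called. These were the carriers Slc22a5 and Slc25a20, the latter at a log2 fold change of 0.08, and Bbox1. Bbox1, the last enzyme of the route, stood at 2.44 ± 1.12 (SD, n = 3) and 3.60 ± 2.18 (SD, n = 3) CPM. Tmlhe, another synthesis enzyme, was listed but not found in the annotation and so was not tested.

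**Figure D3:**
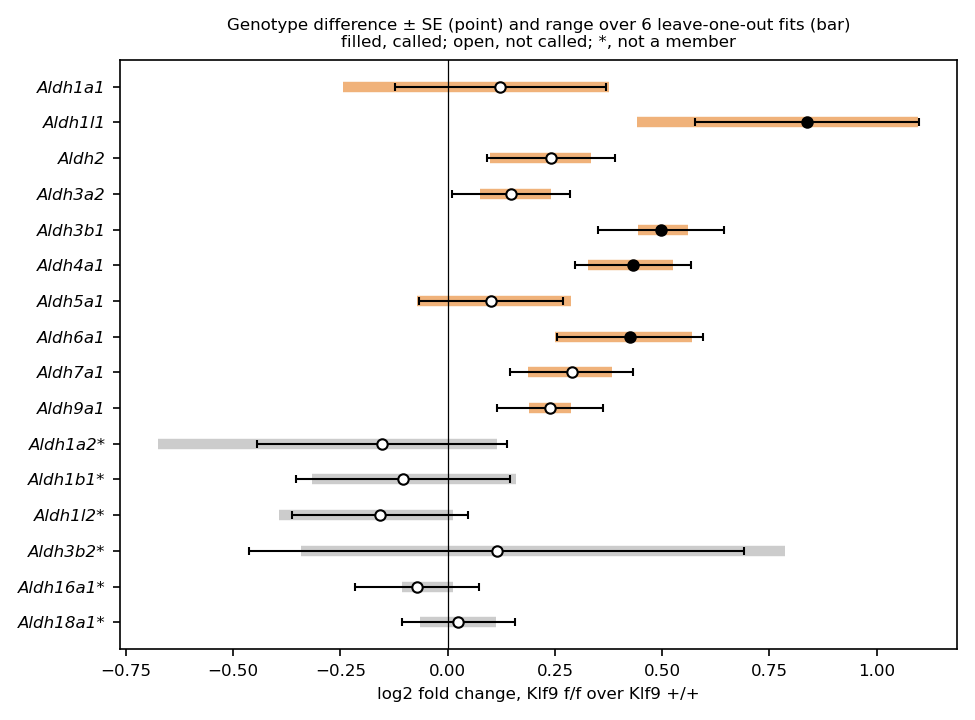
Log2 fold change of Klf9 f/f over Klf9 +/+ for the 10 members and the 6 other family genes tested (asterisks), as points with SE, filled where called, over bars for the range of 6 leave-one-out fits. The bars of Aldh1a1 and Aldh5a1 cross 0, and that of Aldh1l1 runs from 0.44 to 1.10.

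Of the 11 other aldehyde dehydrogenase genes, 6 were tested and 0 called, with 2 of the 6 higher in Klf9 f/f and a median of -0.09. Aldh1a2, the retinaldehyde dehydrogenase known from meninges, had the highest level per length of these (33.2 ± 12.3 CPM per kb, SD, n = 6), close to Aldh1a1. It stood at 61.2, 64.1 and 116 CPM in Klf9 +/+ against 90.3, 35.2 and 83.9 CPM in Klf9 f/f, and its log2 fold change of -0.15 became -0.67 and was called without Klf9 f/f replicate 1, but turned to 0.12 without Klf9 f/f replicate 2 and to 0.0040 or 0.00048 without replicate 3 of Klf9 f/f or Klf9 +/+. Aldh18a1, which makes the proline precursor, followed at 23.3 ± 2.90 CPM per kb with a log2 fold change of 0.02. Aldh1a7, the close neighbour and near copy of Aldh1a1, was at 0.0980 to 0.223 CPM, so few reads were assigned to it. The members held 77.7% to 84.1% of the level per length summed over all 21 genes.

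**Figure D4:**
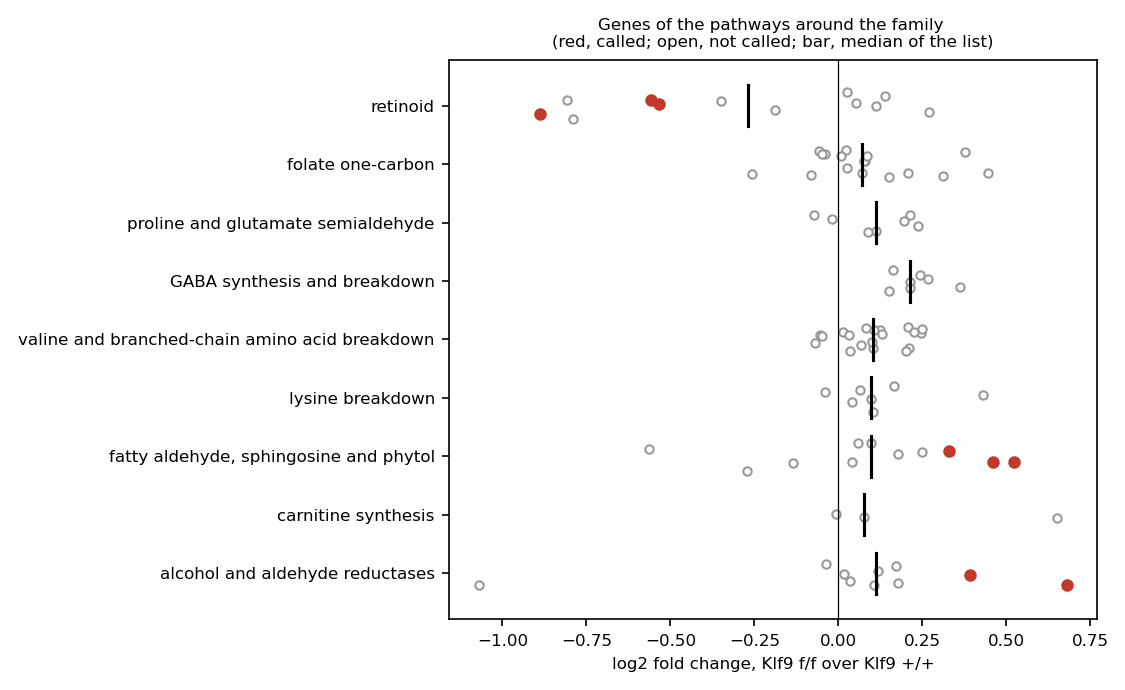
Log2 fold change of each tested gene in the 9 pathway lists around the members, with called genes in red, others open and a bar at each list's median. The retinoid list has its 3 called genes below 0 and a median of -0.27, and the 5 genes called above 0 are Hacl1, Cyp4f14, Cyp4f15, Akr1b8 and Akr1b10.

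Among the Klf9 f/f libraries, most members were lowest in replicate 2. Between Klf9 +/+ replicates 1 and 2 the members went both ways. Replicate 2 over replicate 1 ran from -0.45 (Aldh5a1) to 0.28 (Aldh1a1) on the log2 scale. Klf9 f/f replicate 2 lay below Klf9 f/f replicate 1 for 9 of 10 members, where 49.7% of all genes did, and below both other Klf9 f/f libraries for 9 of 10, where 37.7% did. The median log2 difference of replicate 1 over replicate 2 was 0.34 over the members and -0.0020 over all genes, and it was largest for Aldh1l1 (1.14). For 6 members its level also fell short of 1 or both first-series Klf9 +/+ libraries. The astrocyte markers were also lowest in replicate 2 among the Klf9 f/f libraries. Their mean log2 CPM was 8.88, 8.62 and 8.91 in Klf9 +/+ and 9.19, 8.74 and 9.36 in Klf9 f/f. From Klf9 +/+ replicate 1 to replicate 2 the marker mean fell, whereas Aldh1a1, Aldh3a2 and Aldh6a1 rose. Of the markers, 14 of 14 lay higher in Klf9 f/f, 4 at the threshold.

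Taken relative to the mean log2 CPM of these 14 markers, a comparison chosen after the values were seen, 8 of 10 members were higher in Klf9 f/f in the first series and 2 of 10 in the second. The 2 were Aldh1l1 and Aldh3b1. The share of all genes higher on this scale was not computed. The markers' median log2 difference was 0.24 in the first series and 0.49 in the second, against -0.0039 and 0.023 over all genes. A gene without a difference therefore falls below 0 on this scale, and further in the second series, so these counts are no result about the members alone. Relative to the markers, Aldh1l1 stood at -2.91, -3.05 and -2.57 in Klf9 +/+ and at -2.08, -2.77 and -2.24 in Klf9 f/f, a difference of 0.56 in the first series and 0.33 in the second, with Klf9 f/f replicate 2 within the Klf9 +/+ range. Aldh3b1 differed by 0.25 and 0.10 on this scale, Aldh4a1 by 0.20 and -0.017, and Aldh6a1 by 0.18 and -0.015. The radial glia markers had 0 of 11 called in Klf9 f/f.

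**Figure D5:**
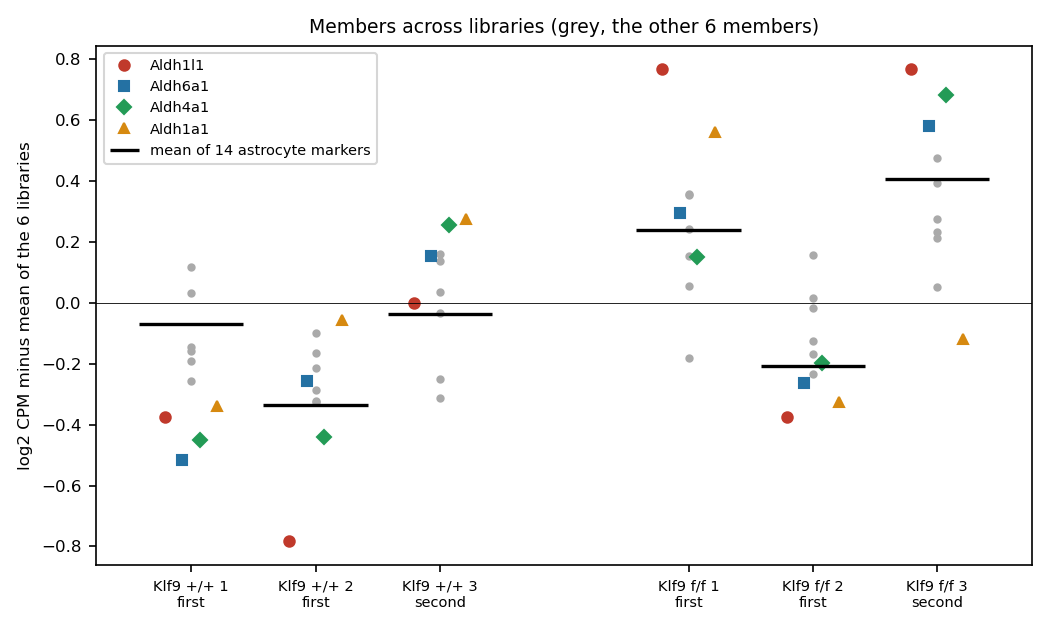
Log2 CPM of each member minus its mean over the 6 libraries, with 4 members in colour, the other 6 in grey and a black line for the mean of 14 astrocyte markers in each library. Klf9 f/f replicates 1 and 3 stand above 0 and replicate 2 below 0 for Aldh1l1, Aldh6a1, Aldh4a1 and the marker mean, whereas Aldh1a1 also lies below 0 in replicate 3.

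Library series differed for 3 members, all higher in the second, at the same threshold (20.7% of all genes were called higher and 22.4% lower). Aldh4a1 rose by 0.70 on the log2 scale (SE 0.14, edgeR adjusted p = 0.0085), Aldh6a1 by 0.54 (SE 0.18, edgeR adjusted p = 0.0478) and Aldh3a2 by 0.40 (SE 0.14). For these 3 the series difference was larger than that of genotype, which was 0.43, 0.42 and 0.15 on the same scale. Members above all first-series libraries in both second-series libraries numbered 2 of 10, where 25.5% of all genes were.

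Gene profiles most like that of Aldh1l1 were found by the root-mean-square difference of mean-centred log2 CPM over the 6 libraries, among 10382 genes of at least 10 CPM on average. They were Kcnj16, an inward rectifier potassium channel, at 0.09, then Acss1, an acetyl-CoA synthetase, at 0.18, Cd44 at 0.18, Pcx, pyruvate carboxylase, at 0.20 and Pygb, brain glycogen phosphorylase, at 0.20, against a median of 0.62 over all genes. Aldh6a1 was the nearest member at 0.31, with 99 genes nearer. For Aldh6a1 the nearest genes were Vps8, Lrsam1, Wdr19, Pld2 and Tlr3 at 0.06 to 0.08, and the nearest member was Aldh4a1 at 0.12, with 53 genes nearer. For the remaining members, 28 (Aldh3b1) to 937 (Aldh5a1) genes lay nearer than the closest member. These distances are descriptions over 6 libraries that differ in depth and series.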

How the data were processed

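Ribosome-bound mRNA of 3 Klf9 +/+ and 3 Klf9 f/f libraries was analysed from the whole-number read counts per gene that the authors deposited without normalization. By the study's methods, 50 bp reads were mapped with STAR to mouse mm9 and counted with HTSeq without regard to strand. HTSeq's 5 summary lines (16.4% to 26.6% of reads) were left out. Names, exon lengths and overlaps came from GENCODE M1 (37205 of 37620 genes).

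Genes above 1 CPM in at least 1 library (15056) were TMM-scaled and fitted by the quasi-likelihood functions of edgeR 4.0.16 (glmQLFit, then glmQLFTest; R 4.3.3), with series and genotype as terms and 3 residual degrees of freedom (2 for the interaction). Calls used 1.2-fold and unadjusted p under 0.05, after the study, and Benjamini-Hochberg adjusted p under 0.05. SE is the log2 fold change over the square root of F. Log2 CPM used a prior count of 2. The fit was tested on simulated counts. DESeq2 1.42.0, other scalings, filters and samples were alternatives. Library depth, 21594714 to 66343759 reads on genes, leaves members with at least 443 reads per library, so that the spread between libraries sets their precision.

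Named genes were the 10 members, list genes called or else the most abundant of a list, the 5 genes nearest to Aldh1l1 and Aldh6a1, and Klf9, with the neighbouring enzymes, Aldh1a7 and Aldh18a1 added after their values were seen. Some genes that this rule names are not reported here. The members and lists were chosen with earlier results of these data known. Figures used matplotlib 3.10.9 under Python 3.11.15.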

Additional observations from a re-analysis of the deposited data

How the results depend on the processing

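Members called higher in Klf9 f/f numbered 4, and 2 without the series term, 1 in the first series alone and 0 at an adjusted p under 0.05. With a library left out in turn they numbered 1 to 5, with 1 without replicate 3 of either genotype. At an adjusted p under 0.05 the count was 0, and 1 with no filter beyond 1 count (Aldh1l1). Leaving out replicate 3 of either genotype lets the first series alone set the genotype difference. Those fits and the first series alone are therefore not separate checks. Why the counts moved was not tested. Other family genes called lower went from 0 to 1 with no filter beyond 1 count and with filterByExpr (Aldh1a3, at 0.243 to 0.365 CPM in Klf9 +/+ and 0.0916 to 0.134 CPM in Klf9 f/f), and were 0 to 1 over the leave-one-out fits (Aldh1a2 without Klf9 f/f replicate 1). Members called higher in the second series numbered 3, 5 with upper-quartile scaling, and 1 to 6 over the leave-one-out fits. Genes of the pathway lists called higher numbered 5, and 8 with no filter, 2 without the series term, 1 beyond 1.2-fold (glmTreat), 0 in the first series alone and 0 to 13 with a library left out (0 without replicate 2 or 3 of Klf9 +/+, 1 without Klf9 f/f replicate 3, 2 without Klf9 f/f replicate 1, 13 without Klf9 f/f replicate 2). Those called lower numbered 3, and 7, 1, 2 and 0 in these settings and 0 to 7 with a library left out (7 without Klf9 f/f replicate 1, 1 without Klf9 +/+ replicate 1, 5 without Klf9 +/+ replicate 2, 0 without replicate 3 of either genotype). Aldh6a1 held 27.2% of the members' level, 23.0% in Klf9 +/+ replicate 1 alone and 31.7% in Klf9 f/f replicate 3 alone.

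Over 150 alternatives for single members, 130 kept direction and side of the threshold, 14 lost a call, 1 gained one and 5 reversed. The 14 losses all fell on Aldh3b1, Aldh4a1 and Aldh6a1, while members that were not called could lose none. Aldh5a1 was -0.073 in the first series alone and -0.071 to 0.29 with a library left out, and Aldh1a1 -0.24 to 0.38. Of the other family genes, the first series alone gave Aldh1a2 0.00077, Aldh3b2 -0.34, Aldh16a1 0.0071 and Aldh18a1 -0.064, and no series term gave Aldh3b2 -0.083. With a library left out, Aldh1a2 ran from -0.67 to 0.12, Aldh1b1 from -0.32 to 0.16, Aldh1l2 from -0.39 to 0.013, Aldh3b2 from -0.34 to 0.79, Aldh16a1 from -0.11 to 0.012 and Aldh18a1 from -0.064 to 0.11. The adjusted counts and the pathway counts over these settings were chosen after seeing the data.

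No paired analysis was possible because the replicate numbers are running numbers within each genotype and pair no libraries. In the second series each genotype has 1 library, and its spread is unknown there.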
